A study of Mus musculus with 1617 samples.

Results

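Single brain macrophages from 3 mouse brain regions at postnatal day 14 (P14) were compared, each region against the other two. The cells were the single-read P14 cells labelled hippocampus, thalamus or visual cortex, less those with Calb1 at 100000 TPM or more, where TPM counts a gene's transcripts relative to all transcripts of a cell and corrects for gene length. That left 406 of 428 P14 cells, or 25.1% of the cells of the whole series. The Calb1 limit took out 12 hippocampal cells, 2 of 190 thalamic cells and 8 of 120 visual cortical cells. The study sorted CD45+ F4/80+ CD11b+ Ly6C- macrophages from brain to ask how varied they are, and sequenced each cell as its own library after capture on a microfluidic chip. All 3 groups are given the age P14 and a region, and no strain, sex, genotype, treatment or animal is named for them in the labels, so each region is 1 sample. Cells of 1 sample are not replicates, so no test was possible between regions and no p-value is given. Values below are mean TPM over the cells of a region.

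Microglia are the resident macrophages of the brain. They are kept in a homeostatic state in which they express purinergic receptors such as P2ry12, which sense nucleotides from other cells, and the fractalkine receptor Cx3cr1, and TGF-beta signalling is needed to hold that state. In the postnatal brain they clear dying cells and synapses, and they can take up lipid, secrete chemokines and induce early-response genes within minutes of a stimulus, tissue dissociation included.

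The titles number the cells of each region in 3 unbroken stretches, called title runs here and always listed in the order 1, 2, 3. The sources used here do not say what a run stands for, and it serves only as a technical split. Runs held 53, 34 and 19 kept cells in hippocampus, 68, 64 and 56 in thalamus, and 48, 30 and 34 in visual cortex. Median numbers of genes per cell (1 TPM or above) were 4274 in hippocampus, 4042 in thalamus and 4042 in visual cortex, and 6145 in the cell with the most. The columns hold no counts, so read depth is unknown. The Calb1-high cells left out were 10.2% of hippocampal cells (exact 95% interval 5.37 to 17.1), 1.05% of thalamic cells (0.128 to 3.75) and 6.67% of visual cortical cells (2.92 to 12.7), where the intervals cover counting error over cells only. The highest kept cell had Calb1 at 13177 TPM in hippocampus, 67034 in thalamus and 75115 in visual cortex, and the lowest cell left out had 233323, 193915 and 109051 TPM in the same order.

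The cells carried microglial markers in all 3 regions. P2ry12 was detected, that is at 1 TPM or above, in 100% of cells and averaged 10585 TPM in hippocampus, 10032 in thalamus and 11557 in visual cortex. Of the 19 homeostatic microglia markers, which also include Tmem119, Csf1r and Sall1, 0 lay 1.5-fold above or below both other regions in any region, and their summed level was 68191, 63452 and 68716 TPM in hippocampus, thalamus and visual cortex. Markers of other cell types summed to far less. Border-associated macrophage markers (14 genes) reached 435.7, 545.2 and 499.1 TPM in the same order. Among them Lyve1 was at 0 in hippocampus and visual cortex and at 0.00372 TPM in thalamus, whereas Mrc1 was detected in every region, as given below. Monocyte markers (11) summed to 37, 25.1 and 33.4 TPM, neutrophil markers (12) to 9.88, 17.6 and 28, T cell markers (8) to 15.8, 17.1 and 14.5, and natural killer cell markers (7) to 0.647, 1.85 and 1.45. Neuron markers (16) came to 9.59, 5.46 and 14.7 TPM, astrocyte markers (12) to 136.5, 110 and 132.6, oligodendrocyte lineage markers (16) to 93.4, 119.9 and 37.1, and endothelial markers (12) to 252.5, 179.7 and 314.7. B cell markers (7) reached 724.3, 857.6 and 660.7 TPM, of which the immunoglobulin gene Ighm gave 601.4, 753.1 and 537.7. The dendritic cell list (7) summed to 1945.6, 1887.3 and 1824.6 TPM and holds Siglech, which microglia also express. The list of regional neuron genes (16) summed to 2176.8, 2566.5 and 3540.05 TPM, with visual cortical runs at 2479.2, 3150.4 and 5381.5. It holds Calb1, which was detected in 98.1%, 98.4% and 94.6% of the kept cells of hippocampus, thalamus and visual cortex. Mural and fibroblast, choroid plexus and erythroid lists stayed at or under 7.93 TPM.

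Genes averaging at least 5 TPM in any region were called measured, which held for 12738 of 43280 gene names. A gene was called apart when its region's mean, plus a pseudocount of 1 TPM, was at least 1.5-fold above, or below, that of both other regions. On that rule 1849 genes (14.5%) were higher and 1814 (14.2%) lower in hippocampus, 1810 (14.2%) higher and 1362 (10.7%) lower in thalamus, and 1964 (15.4%) higher and 2070 (16.3%) lower in visual cortex. Many of the higher genes rested on few cells: a single cell held at least 50% of the region's total for 44.6% in hippocampus, 41.5% in thalamus and 53.1% in visual cortex, against 27.3%, 20.9% and 30.9% of all measured genes in the same regions.

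A stricter count asked that all 3 title-run means of a region lie above, or below, all 6 run means of the other regions. It held for 0.958% of measured genes on the higher and 1.07% on the lower side in hippocampus, 1.48% and 0.330% in thalamus, and 0.793% and 1.27% in visual cortex, with the higher side first. A second scale, the mean over cells of log2(TPM + 1), gives each cell a more even weight. Genes 1.5-fold apart on both scales were 1.17% higher and 0.212% lower (27 genes) in hippocampus, 0.243% higher (31) and 0.267% lower (34) in thalamus, and 0.361% higher (46) and 0.785% lower (100) in visual cortex. With separate runs on both scales as well, hippocampus had 16 genes higher (0.126%) and 3 lower (0.0236%), thalamus had 5 higher (0.0393%) and 1 lower (0.00785%), and visual cortex had 3 higher (0.0236%) and 14 lower (0.110%). The counts on both scales were added after the data were seen. Hippocampus thus had most of its both-scale genes on the higher side and visual cortex most of its own on the lower side. That imbalance came with the mean log scale, as the sides were near even by mean TPM. The mean log scale alone gave 4.11% higher and 0.314% lower in hippocampus, and 0.526% and 1.69% in visual cortex. Median genes per cell were 4274 in hippocampus and 4042 in visual cortex, and the part this had in the imbalance was not tested.

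Runs of the same region differed as often as regions did. With the 1.5-fold rule applied within a region, single runs stood above both other runs of their region for 17.9% to 21.6% of measured genes in hippocampus, 17.3% to 18.7% in thalamus and 15.2% to 25.3% in visual cortex. Runs hold fewer cells than regions, so their means are less precise. In all 3 regions, run 1 stood above runs 2 and 3 for the same 170 genes (1.33%). These include the chaperones Hspa8, Hsp90aa1, Hsp90ab1, Hspe1 and Dnajb1, the inducible heat shock gene Hspa1a, and Hmox1, which degrades heme.

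**Figure D1:**
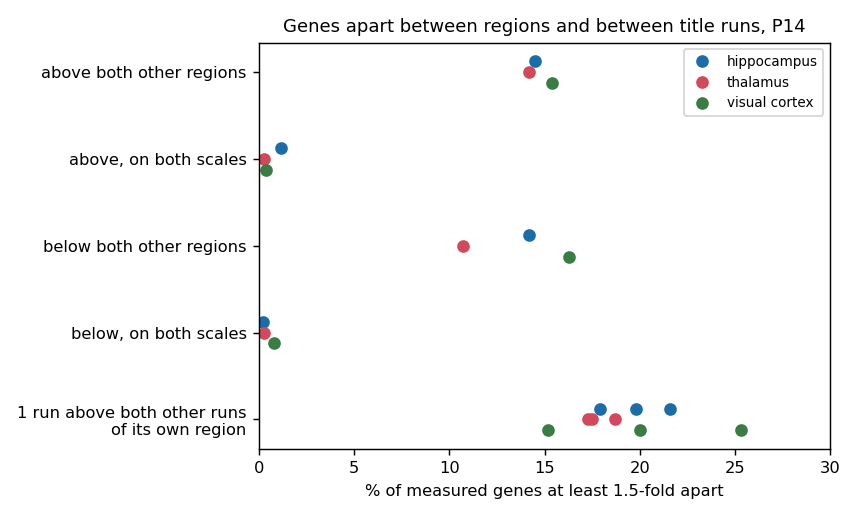
Percent of measured genes 1.5-fold above or below both others, for each region against the other regions by mean TPM or on both scales, with each title run against the other runs of its region in the bottom row. By mean TPM the 3 regions lie between 14.2% and 15.4% above, the runs lie between 15.2% and 25.3%, and no region passes 1.17% on both scales.

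Hspa1a showed the run difference most plainly. It averaged 167.5, 0.0579 and 0.0247 TPM in hippocampal runs 1, 2 and 3, 297.7, 0 and 2.29 TPM in thalamic runs, and 115.9, 0.722 and 0 TPM in visual cortical runs. It was high in run 1 of every region and near 0 in every other run. The summed heat shock and stress list was also highest in run 1 of every region, at 16998, 5141 and 6717 TPM in hippocampal runs, 18494, 6771 and 7368 in thalamic runs, and 14015, 6588 and 5752 in visual cortical runs. Early-response genes did not follow it in all regions. Their sum was 23435, 14291 and 14918 TPM in hippocampal runs and 22901, 15275 and 15710 in thalamic runs, highest in run 1 of both, but 13523, 18183 and 15197 in visual cortical runs, lowest in run 1. Values of many genes are therefore also given by run. Ccr1, Bhlhe41, Lrp1, Cd74 and mt-Nd2, given below without run values, did not have separate runs by mean TPM.

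**Figure D2:**
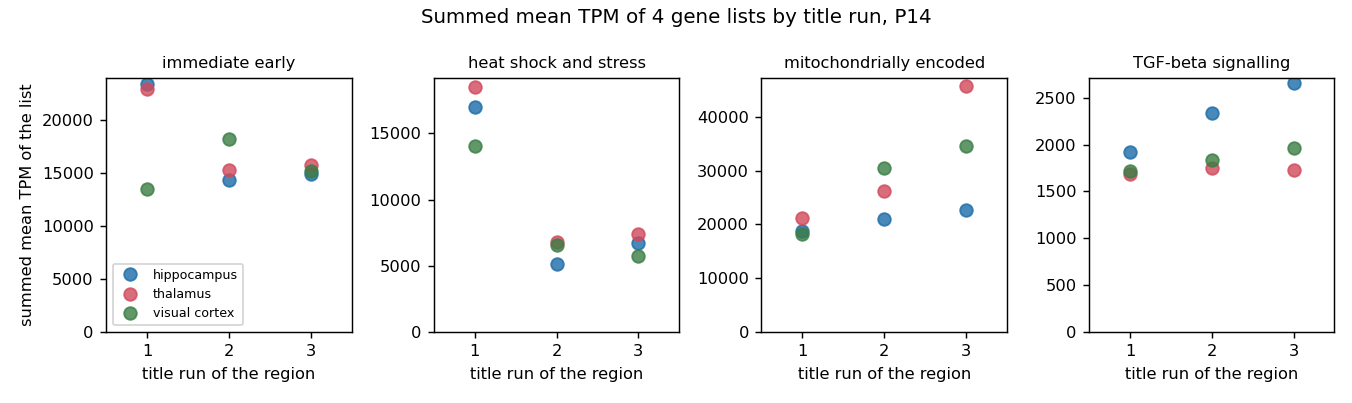
Summed mean TPM of gene lists in each title run of hippocampus, thalamus and visual cortex. Heat shock genes are highest in run 1 of every region (16998, 18494 and 14015 TPM), whereas immediate early genes are highest in run 1 of hippocampus and thalamus and lowest in run 1 of visual cortex (13523 TPM).

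Abundant genes lower in visual cortex on both scales included Apoe, Psap and Cox4i1, but few genes of the related lists were apart. Of 16 measured genes of cholesterol and lipid handling 2 were higher and 1 lower in visual cortex, of 27 lysosome and phagocytosis genes 0 and 1, and of 26 oxidative phosphorylation genes 3 and 2, against 15.4% higher and 16.3% lower of all measured genes. The lower lysosome and phagocytosis gene was Axl, and Psap is not on that list. Apoe, the apolipoprotein that carries lipid between cells (chromosome 7, 19696109 to 19699188, minus strand, GRCm38), averaged 553.99 TPM in visual cortex (runs 390.6, 672.6 and 680.00), against 888.8 in hippocampus (1038, 683.2 and 839.1) and 1293 in thalamus (1949, 713.2 and 1157.99). By mean TPM all 3 visual cortical runs lay below all 6 others, by a narrow margin between 680.00 TPM in visual cortical run 3 and 683.2 TPM in hippocampal run 2. On the mean log scale the runs of Apoe were not separate. The middle cell had 26.2 TPM in visual cortex, 171.1 in hippocampus and 209.2 in thalamus, and Apoe was detected in 73.2% of visual cortical cells (exact 95% interval 64 to 81.1), against 88.7% and 87.2% of hippocampal and thalamic cells. The log2 ratio of visual cortex to the mean of the other regions was -0.98, and -1.61 as a difference of mean log2(TPM + 1). Without the first run of each region the ratio was -0.29.

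Psap, the precursor of the saposins that help lysosomes degrade sphingolipids (chromosome 10, 60277627 to 60302597, plus strand), averaged 109.2 TPM in visual cortex (runs 100.9, 111.4 and 119.05), against 223.3 in hippocampus (221.8, 266.6 and 150.2) and 196.7 in thalamus (174.3, 193.6 and 227.2). Its log2 ratio was -0.94, and -0.99 on the mean log scale. Cox4i1, a nuclear-encoded subunit of cytochrome c oxidase, averaged 276.8 TPM in visual cortex (233.3, 312.8 and 306.6), against 566.1 in hippocampus (542.6, 539.2 and 679.8) and 474.1 in thalamus (485.7, 378.5 and 569.3), a ratio of -0.91. Both genes were below every hippocampal and thalamic run in all 3 visual cortical runs. Suz12, a subunit of the Polycomb complex PRC2, which methylates histone H3, averaged 37.4 TPM in visual cortex (56, 15.7 and 30.3), against 107.9 in hippocampus (96.9, 126.8 and 104.98) and 78.1 in thalamus (78.3, 68.6 and 88.8). The proton pump subunit gene Atp6v0a2 was at 13.1 TPM in visual cortex, against 67.5 in hippocampus and 94.6 in thalamus. Elmo2, which acts in engulfment and cell migration, was at 10.7 TPM in visual cortex, against 77.6 and 63.3 in hippocampus and thalamus. The 14 genes lower in visual cortex on both scales with separate runs also included Usp15 (15 TPM, against 57.1 and 96.8), Zfp263 (42.2, against 164.5 and 167.6), Dhx30 (1.73, against 30.1 and 36.4) and Tmem33 (47, against 99.1 and 93.2), each with hippocampus before thalamus.

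Aldoa, a glycolytic aldolase, averaged 166.4 TPM in visual cortex (199.5, 118.1 and 162.2), against 298.1 in hippocampus (340.2, 263.1 and 243.6) and 371.8 in thalamus (569.7, 285.2 and 230.5). Sumo3, a small protein modifier, averaged 67 TPM in visual cortex (115.2, 29.9 and 31.7), against 218.7 in hippocampus (210.1, 161.3 and 345.6) and 203.2 in thalamus (280.5, 150.9 and 169.1). By mean TPM these too did not overlap between visual cortical runs and the rest, but the runs of Aldoa were not separate on the mean log scale. Chemokines did overlap. Ccl4, which attracts leukocytes, averaged 797.5 TPM in visual cortex (857.2, 1243.8 and 319.5), against 1271 in hippocampus (1893, 898.8 and 205.4) and 1250.3 in thalamus (1811, 1414.5 and 382.4), low in run 3 of every region. Ccl12 averaged 567.9 TPM in visual cortex (352.5, 330.9 and 1081), against 1070 in hippocampus (1618, 779.3 and 63.8) and 976.1 in thalamus (797.9, 876.2 and 1306).

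Early-response genes in visual cortex were lower mainly in title run 1. Dusp1, a phosphatase that switches off MAP kinases (chromosome 17), averaged 652.4 TPM in visual cortex (539.03, 664.3 and 802.1), against 1117 in hippocampus (1489, 779.8 and 680.9) and 1224.4 in thalamus (1641, 979.5 and 997.9). The middle cell had 181.6, 763.3 and 858.98 TPM in the same order. Fosb, an AP-1 transcription factor subunit (chromosome 7), averaged 54.5 TPM in visual cortex (63.3, 52.6 and 43.6), against 87.5 in hippocampus (133.8, 48.3 and 28.4) and 91.1 in thalamus (112.1, 67.7 and 92.2). Klf2, a zinc finger factor that restrains macrophage activation (chromosome 8), averaged 60.1 TPM in visual cortex (55.5, 98.6 and 32.8), against 109.1 in hippocampus (165.1, 49.3 and 59.7) and 113.3 in thalamus (176.5, 74.8 and 80.6). The 3 log2 ratios were -0.84 for Dusp1, -0.70 for Fosb and -0.88 for Klf2, and -0.23, -0.32 and -0.04 without the first run of each region. The gaps lay between the first runs, where hippocampus and thalamus had 1489 and 1641 TPM of Dusp1 and visual cortex 539.03. Those same first runs held the high heat shock levels, whose part in the result was not tested. Over the whole immediate early list, 0 of 19 measured genes were higher and 4 lower in visual cortex, where 16.3% of all measured genes were lower. The list's median log2 ratio was -0.31, against -0.11 over all measured genes. By run the median was -0.95, -0.05 and -0.07, and without the first run it was 0.20.

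These 3 genes are shown with their RefSeq promoters (GRCm38.p6, 250 bases before to 50 after the start), because they are the early-response genes, or known targets of such signals, that were lower in visual cortex on both scales. Capitals mark the cyclic AMP response element TGACGTCA or its short form TGACG, searched on both strands, and the short form also lies within the full one.
Dusp1: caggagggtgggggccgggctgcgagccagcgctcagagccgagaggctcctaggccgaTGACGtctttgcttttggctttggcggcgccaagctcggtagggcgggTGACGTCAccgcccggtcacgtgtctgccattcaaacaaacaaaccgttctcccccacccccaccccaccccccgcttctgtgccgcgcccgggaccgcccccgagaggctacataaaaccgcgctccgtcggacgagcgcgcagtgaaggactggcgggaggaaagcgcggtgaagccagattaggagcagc
Fosb: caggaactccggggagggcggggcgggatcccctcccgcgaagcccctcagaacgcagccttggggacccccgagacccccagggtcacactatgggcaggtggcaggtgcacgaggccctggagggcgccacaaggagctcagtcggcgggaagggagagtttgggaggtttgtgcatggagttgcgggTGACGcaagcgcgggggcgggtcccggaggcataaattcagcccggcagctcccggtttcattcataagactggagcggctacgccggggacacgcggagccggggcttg
Klf2: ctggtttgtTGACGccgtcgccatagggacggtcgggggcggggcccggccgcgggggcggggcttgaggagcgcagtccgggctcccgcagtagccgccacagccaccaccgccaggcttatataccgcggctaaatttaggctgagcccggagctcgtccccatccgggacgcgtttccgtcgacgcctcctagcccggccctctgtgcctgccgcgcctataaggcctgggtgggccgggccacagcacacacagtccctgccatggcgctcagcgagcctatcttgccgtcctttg
The Dusp1 window, chr17:26508423-26508722 on the minus strand, holds 1 full motif and 3 matches to the short one, of which 2 overlap within the full motif. Fosb, chr7:19309996-19310295 on the minus strand, and Klf2, chr8:72318812-72319111 on the plus strand, each hold 1 match to the short motif. Of 32851 RefSeq promoters of 300 bases, 1.79% hold the full motif and 20.8% the short one, and the CArG box, which serum response factor binds, is in 1.63% of them and in 0 of these 3 windows.

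Fewer genes were higher than lower in visual cortex on both scales, and the higher ones included Ccr1, Zfp644 and Xist. The chemokine receptor gene Ccr1 averaged 192.7 TPM in visual cortex, against 74.3 in hippocampus and 44.7 in thalamus. Zfp644, a zinc finger gene, averaged 159.9 TPM in visual cortex (159.4, 153.1 and 166.6), against 57.5 in hippocampus and 75.5 in thalamus, and its 3 visual cortical runs lay above all others. Xist, the RNA that silences 1 X chromosome in female cells, averaged 188.7 TPM in visual cortex (142.9 to 224.2 over its runs), against 117.4 in hippocampus and 102.6 in thalamus, while the Y-linked Ddx3y was at 1.76, 1.77 and 1.35 TPM in the same order. Timp2, an inhibitor of matrix metalloproteinases, averaged 242.9 TPM in visual cortex (287.1, 146.4 and 265.7), against 100.3 in hippocampus and 75 in thalamus, a log2 ratio of 1.46, but lay only 0.55 above hippocampus on the mean log scale, short of 1.5-fold there. The mannose receptor Mrc1, a border-associated macrophage marker also found in young microglia, was at 97.4 TPM and in 49.1% of visual cortical cells, against 66.9 TPM and 30.2% in hippocampus and 51.9 TPM and 23.9% in thalamus, at similar median genes per cell, and was short of 1.5-fold against hippocampus by mean TPM. Its log2 ratio of 0.70 became -0.13 without the first run of each region. Over the 14 border-associated markers the sum was 499.1 TPM in visual cortex, against 435.7 in hippocampus and 545.2 in thalamus.

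**Figure D3:**
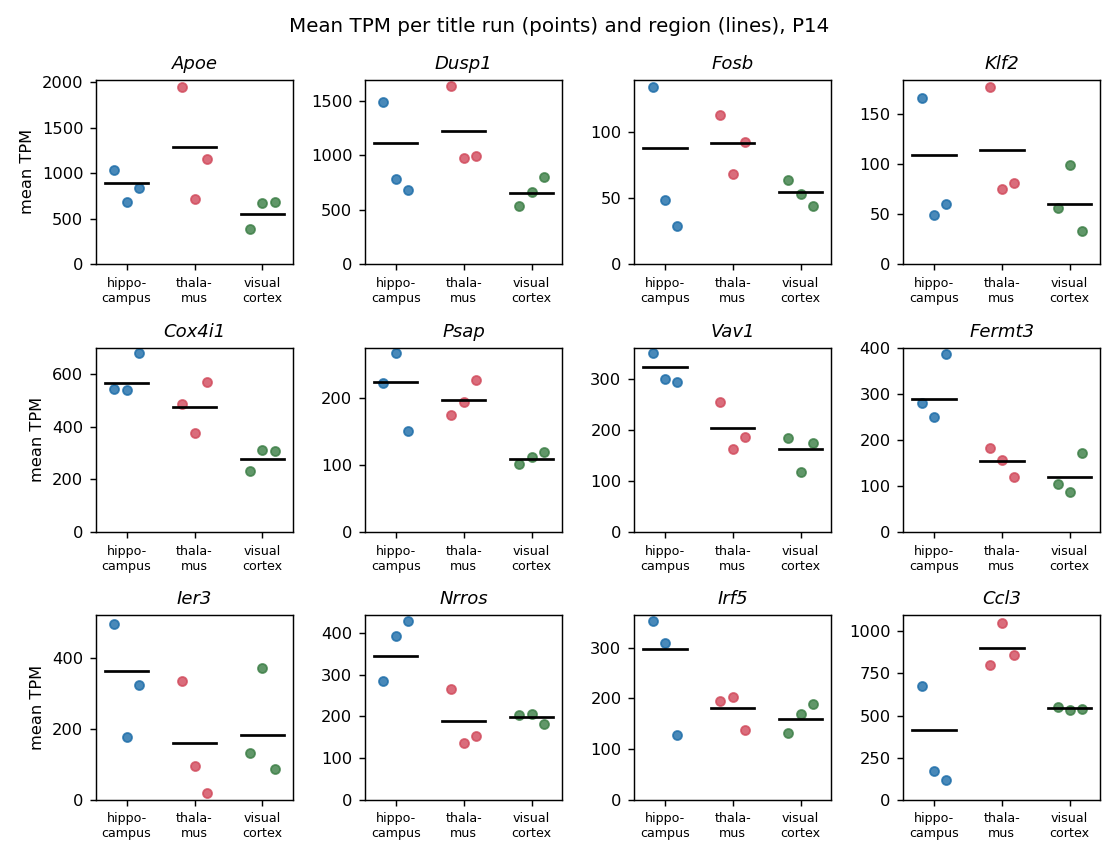
Mean TPM of selected genes in each title run (points) and over all cells (lines) of hippocampus, thalamus and visual cortex, with each axis from 0. Apoe, Psap and Cox4i1 have their 3 visual cortical runs below all others, and Vav1 and Nrros have their 3 hippocampal runs above all others.

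Among the genes higher in hippocampus with separate runs on both scales were Vav1 and Fermt3, which both act in leukocytes. Vav1, an exchange factor that activates Rac behind immune receptors (chromosome 17, 57279100 to 57328031, plus strand), averaged 324.6 TPM in hippocampus (350.9, 299.8 and 295.2), against 203.7 in thalamus (255.4, 163.6 and 186.5) and 163.8 in visual cortex (184.4, 117.7 and 175.3). All 3 hippocampal runs lay above the other 6. It was detected in 78.3% of hippocampal cells, against 54.3% of thalamic and 56.2% of visual cortical cells, and the middle cell had 19.4, 2.13 and 2.12 TPM in that order. Its log2 ratio was 0.82, and 1.61 on the mean log scale. Fermt3 (kindlin-3), which activates integrins in blood cells (chromosome 19, 6998958 to 7019469, minus strand), averaged 289.9 TPM in hippocampus (280.99, 250.1 and 386.1), against 155.1 in thalamus (183.2, 156.01 and 119.8) and 120.1 in visual cortex (104.5, 85.8 and 172.3), a ratio of 1.07.

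Of the 14 measured TGF-beta signalling genes, 2 were 1.5-fold higher (Nrros and Ski) and 0 lower in hippocampus, where 14.5% of all measured genes were higher and 14.2% lower. Nrros, which holds latent TGF-beta on microglia for its activation (chromosome 16, 32142785 to 32165594, minus strand), averaged 345.8 TPM in hippocampus (286.01, 392.8 and 428.4), against 188.3 in thalamus (265.9, 136.9 and 152.9) and 197.6 in visual cortex (203.1, 205.5 and 182.8). Its runs did not overlap by mean TPM, but were not separate on the mean log scale. Ski, which represses SMAD targets, averaged 67.1 TPM in hippocampus (47.5, 83 and 93.3), against 35.6 in thalamus (44.6, 17 and 45.8) and 29.9 in visual cortex (16.6, 54.8 and 26.7), where run 2 overlapped the hippocampal runs. The list's median log2 ratio over 14 measured genes was 0.50 in hippocampus (runs 0.22, 0.38 and 0.62), against -0.14 in thalamus and -0.28 in visual cortex. Over all measured genes these medians were -0.10, -0.04 and -0.11. The hippocampal median was 0.33 without each gene's highest cell.

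Of the 18 measured genes of the inflammatory cytokine and NF-kB list, 3 were higher in hippocampus (Cxcl10, Nfkbia and Osm) and 3 lower (Tnf, Nfkb1 and Relb), near the 14.5% and 14.2% of all measured genes. Nfkbia, and Irf5 and Ier3 from other lists, were higher there on both scales. Irf5, a transcription factor of inflammatory gene induction, averaged 298.1 TPM in hippocampus (352.6, 308.8 and 127.4), against 180.4 in thalamus (194.8, 203.2 and 136.8) and 158.7 in visual cortex (131.1, 168.2 and 189.4). Nfkbia, the inhibitor that NF-kB itself induces, averaged 466.3 TPM in hippocampus (489.05, 505.2 and 332.98), against 254.3 in thalamus (347.4, 186.5 and 218.7) and 250.2 in visual cortex (97.5, 367.9 and 361.9). Ier3, an early-response survival gene, averaged 364.1 TPM in hippocampus (497.7, 177.9 and 324.6), against 159.5 in thalamus (336.7, 95.3 and 17.7) and 181.9 in visual cortex (130.8, 372.5 and 85.8). At least 1 hippocampal run of Nfkbia and of Ier3 lay within the range of the other regions' runs, and for Irf5 hippocampal runs 1 and 2 lay above all others and run 3 below them. Without the first run of each region the log2 ratio of Irf5 was 0.47, against 0.81 with all runs.

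Abcg1, a cholesterol efflux transporter, averaged 779.2 TPM in hippocampus (442.9, 364.3 and 2459.8), against 274.3 in thalamus and 290.99 in visual cortex. A single cell held 44.3% of the hippocampal total, yet the middle cell had 220.4 TPM in hippocampus, against 8.88 in thalamus and 10.7 in visual cortex. Lrp1, a receptor for ApoE and other ligands, averaged 233.2 TPM in hippocampus, against 148.3 in thalamus and 122.9 in visual cortex. Snrpb, a core protein of spliceosomal particles, averaged 176.3 TPM in hippocampus (109.7, 245.04 and 239.2), against 50.1 in thalamus (81.1, 17.6 and 49.6) and 46.5 in visual cortex (23.7, 65.1 and 62.3), a log2 ratio of 1.85. Copa, a coat protein of Golgi vesicles, averaged 203.3 TPM in hippocampus (218.4, 174.1 and 213.2), against 58.2 in thalamus and 112.5 in visual cortex. The DNA damage kinase gene Atr averaged 54.1 TPM in hippocampus (56.3, 58.9 and 39.2), against 24.2 in thalamus and 21.9 in visual cortex.

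Lower in hippocampus were Usp14, a deubiquitinase of the proteasome, at 47.5 TPM (49.8, 50 and 36.7), against 149.4 in thalamus (72.3, 179.3 and 208.6) and 164.9 in visual cortex (102.9, 140.4 and 274.02), and the Fc receptor gene Fcgr1, at 98.3 TPM (108.8, 82.7 and 96.8), against 194.6 in thalamus (197.5, 212.4 and 170.5) and 218.8 in visual cortex (201.8, 236.05 and 227.7). The hippocampal runs of both genes lay below all others. Fcgr1 was -1.06 as a log2 ratio and -0.57 on the mean log scale, just short of 1.5-fold there. Mitochondrially encoded genes summed to 20228 TPM in hippocampus (18786, 21087 and 22711), against 30206 in thalamus (21146, 26180 and 45810) and 26489 in visual cortex (18182, 30496 and 34681). Among them mt-Nd2, a subunit of respiratory complex I, averaged 563.7 TPM in hippocampus, against 1145.6 in thalamus and 1098 in visual cortex, a log2 ratio of -0.99 that was -0.44 with Calb1-high cells kept. The first runs of the 3 regions were alike in the mitochondrial sum, and the gap came with the later runs.

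Thalamic cells had higher levels of the chemokine gene Ccl3, the lysozyme gene Lyz2 and few others on both scales. Ccl3, which attracts leukocytes (chromosome 11, 83647844 to 83649355, minus strand), averaged 901.7 TPM in thalamus (799.8, 1048 and 858.3), against 413.04 in hippocampus (676.1, 168.6 and 116.8) and 542.7 in visual cortex (549.2, 534.9 and 540.5). It was detected in 62.8% of thalamic cells, against 49.1% of hippocampal and 46.4% of visual cortical cells. All 3 thalamic runs lay above the rest by mean TPM, but not on the mean log scale. The log2 ratio was 0.91, or 1.24 as a difference of mean log2(TPM + 1). Lyz2, a bacteriolytic enzyme of myeloid cells, averaged 196.2 TPM in thalamus (216.1, 233.6 and 129.4), against 88 in hippocampus (82.1, 146.3 and 0.348) and 62.8 in visual cortex (73.1, 88.7 and 25.3). It was found in 37.8% of thalamic cells, against 23.6% and 23.2% of hippocampal and visual cortical cells.

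Rps19, a protein of the small ribosomal subunit with many pseudogene copies that could share reads, averaged 1767 TPM in thalamus (1992, 1706 and 1563), against 1160.5 in hippocampus (1308, 1226.4 and 632.3) and 1131 in visual cortex (1138, 1065 and 1179.5). Jarid2, a cofactor of PRC2, averaged 96.8 TPM in thalamus (110.9, 87.1 and 90.5), against 11.4 in hippocampus (11.4, 11.4 and 11.5) and 26.9 in visual cortex (47.5, 9.09 and 13.5). Casp6, an effector caspase, averaged 62.3 TPM in thalamus, against 6.24 in hippocampus and 17.5 in visual cortex, and Snrpd2, another core splicing protein, 91 TPM, against 31.5 and 19.5. The runs of all 4 genes did not overlap between thalamus and the rest. Ptprc, which encodes the sorted surface protein CD45, averaged 481.5 TPM in thalamus, against 335.6 in hippocampus and 335.4 in visual cortex, short of 1.5-fold.

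Of the disease-associated microglia genes, which microglia induce around plaques and in developing white matter, 6 of 20 measured were higher and 0 lower in thalamus, where 14.2% of all measured genes were higher and 10.7% lower. The median log2 ratio was 0.31 there (-0.04 over all measured genes), against -0.22 in hippocampus and -0.32 in visual cortex, and 0.13, 0.03 and -0.12 on the mean log scale. Several of the 6 came from few cells. Spp1 (osteopontin) averaged 10.8 TPM in thalamus with 2.13% of cells having it detected and 92.2% of the total in 1 cell, and was at 0 in hippocampus and visual cortex. Clec7a was in 2.66%, Cst7 in 3.72% and Igf1 in 13.3% of thalamic cells. Cd9, a tetraspanin, averaged 1086 TPM in thalamus (540.2, 2128 and 558.2), against 686.5 in hippocampus and 676.6 in visual cortex, but -0.13 on the mean log scale. Lower in thalamus was Bhlhe41, a repressor of clock genes, at 1218.3 TPM, against 1985 in hippocampus and 3054.6 in visual cortex. Rnf167, a ubiquitin ligase of endosomes, averaged 174.7 TPM in thalamus (140.4, 211.97 and 173.7), against 339.3 in hippocampus (247.02, 330.1 and 613.4) and 1255.4 in visual cortex (265.8, 3995 and 235.4).

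Across all gene lists, few genes were apart on both scales. Of 430 measured list genes 34 were (7.91%), 10 of them higher in hippocampus and 14 lower in visual cortex. The hippocampal 10 were Abcg1, Cox5a, Dnajb1, Ier3, Irf5, Lrp1, Nfkbia, Nrros, Rpl7a and Ski. The visual cortical 14 were Aldoa, Apoe, Ccl12, Ccl4, Cd74, Cox4i1, Dusp1, Fosb, H2-T23, Id2, Kcnk6, Klf2, Pcna and mt-Nd3. Ndufa4 and mt-Nd2 were lower in hippocampus, Ccl3, Lyz2, Rps19 and mt-Nd4l higher and Bhlhe41 lower in thalamus, and Ccr1, H2-Q4 and Xist higher in visual cortex. The 10 and 14 are 2.33% and 3.26% of list genes, against 1.17% and 0.785% of all measured genes. List genes tend to be abundant: among genes with 50 TPM or more in a region, 10.2% of list genes and 7.61% of 4283 measured genes were apart on both scales in some region and direction.

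Several lists with wide medians on the ratio scale lay near 0 on the other scale. Cell cycle genes had a median log2 ratio of 0.62 in visual cortex, -1.08 in hippocampus and -0.54 in thalamus, but 0.12, -0.12 and -0.03 on the mean log scale. Interferon response genes had 1.0 in visual cortex, -1.32 in hippocampus and -0.67 in thalamus, and 0.03, -0.05 and -0.01 on the mean log scale. The 4 measured MHC class II genes had -1.34 in visual cortex (runs -1.21, -1.91 and -1.41) and -0.27 on the mean log scale, against -0.11 and -0.05 over all measured genes, and 1 of the 4, Cd74, was 1.5-fold lower. The interferon-induced factor Irf7 is an example of a level carried by 1 cell. It averaged 51.3 TPM in visual cortex (0, 0 and 169.04) with 84.2% of that total in its highest cell, against 0.403 in hippocampus and 2.39 in thalamus. Mki67, a marker of cycling cells, was in 7.14% of visual cortical cells, against 2.83% of hippocampal and 3.72% of thalamic cells, and averaged 3.85, 0.369 and 10.5 TPM in that order. Mitochondrially encoded genes kept a positive median in thalamus on both scales, 0.44 and 0.48 (13 genes, runs 0.19, 0.12 and 0.74), and 0.17 without the third run of each region.

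**Figure D4:**
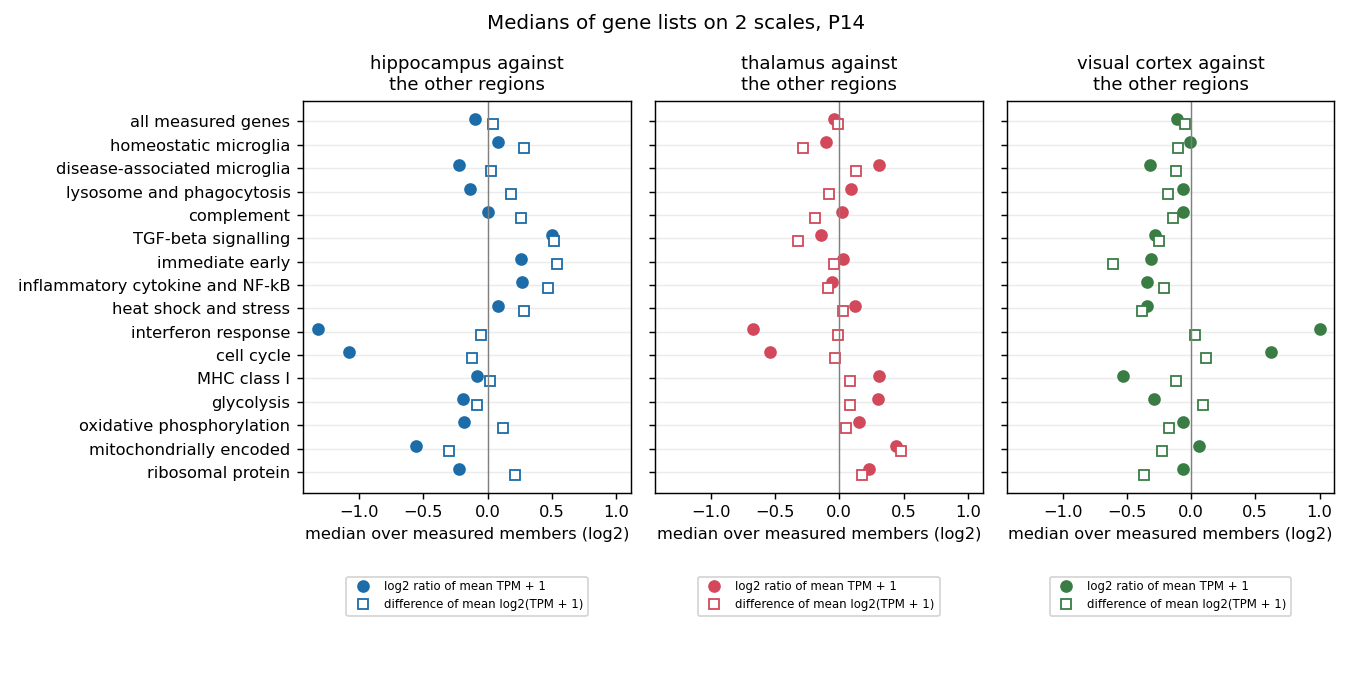
Median log2 ratio of each gene list in hippocampus, thalamus and visual cortex against the mean of the other regions, as a ratio of mean TPM and as a difference of mean log2(TPM + 1). Cell cycle and interferon lists lie farther from 0 on the first scale than on the second in all 3 regions. TGF-beta genes are near 0.50 in hippocampus on both scales.

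Ranking by the ratio of mean TPM named 8 genes per region and direction. It was limited to genes at 50 TPM or more, in 25% of cells and with the same sign on the mean log scale. In hippocampus the higher 8 were Selo, Cmklr1, Fam173b, Lztfl1, Kdsr, Ikbkap, Gfpt1 and Snrpb, with log2 ratios of 1.85 to 4.72. Selo averaged 205.9 TPM there (402.3, 4.0 and 19.5) with 96.3% in 1 cell, and its log2 ratio was 4.72, or 1.11 without each region's highest cell. The chemerin receptor gene Cmklr1 averaged 859.5 TPM in hippocampus (14.7, 44.5 and 4675) with 96.7% in 1 cell, and 3.86 became -0.52. Lower in hippocampus were Evi2b, Tprkb, Zfp120, Ipo11, Fndc3a, Usp14, Rbm18 and Pot1a, between -2.48 and -1.62.

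In thalamus the higher 8 were Tsen15, Setd2, Nfic, Naa25, Apobec1, Jarid2, Vta1 and Depdc5 (1.92 to 3.90), and only Jarid2 of these 8 was 1.5-fold apart with separate runs on both scales. The lower 8 were Birc3, Etv6, Pnpla8, Fryl, Lonp2, Acly, Arih1 and Eapp (-2.17 to -1.51). In visual cortex the higher 8 were Exosc2, Slc38a1, Swap70, Vamp5, Msrb2, Arrb1, Pebp1 and Fam76b (2.16 to 4.57). Each had 52.6% or more of its visual cortical total in 1 cell. Exosc2, a subunit of the RNA exosome, averaged 810.6 TPM with 96.4% in 1 cell, and 4.57 became 0.33 without the highest cells. The lower 8 were Tmem128, Tmem209, Lman2l, Elmo2, Atp6v0a2, Zfp263, Map3k8 and Slc9a8 (-3.14 to -1.95). Map3k8, a kinase upstream of ERK in macrophages, averaged 16.1 TPM in visual cortex (7.74, 15.4 and 28.5), against 95.7 in hippocampus (162.6, 44.6 and 0.629) and 64.5 in thalamus (41.5, 137.7 and 8.74).

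**Figure D5:**
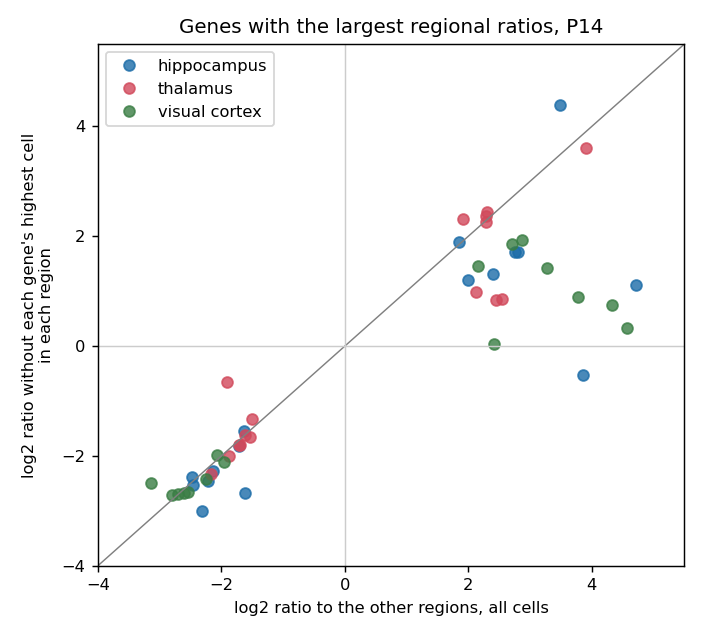
Log2 ratio of the named genes in their region against the mean of the other regions, with all cells and without each gene's highest cell in each region. Selo, Cmklr1 and Exosc2 drop from 4.72, 3.86 and 4.57 to 1.11, -0.52 and 0.33.

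The order of the regions at P14 recurred at other ages about as often for the genes 1.5-fold apart as for all measured genes. The same regions were compared within P7 (34 hippocampal, 44 thalamic and 32 visual cortical cells, sequenced paired-end) and within the adult (51, 92 and 87 cells). Of genes 1.5-fold higher in hippocampus at P14, 36.5% were also above both regions at P7, against 32.5% of all measured genes, and 28.7% in the adult, against 29.1%. Genes lower in visual cortex gave 44.1% at P7, against 42.5%, and 29% in the adult, against 29.1%. The other 4 sets lay within 3 percentage points of all genes at both ages. Recurrence by 1.5-fold or more was above that of all measured genes in every set but visual cortex higher at P7 (19.5%, against 20.5%). The excess was smallest for thalamus lower at P7 (14.3%, against 13.9%) and largest for hippocampus higher at P7 (26.7%, against 21.6%), and was not tested. On the mean log scale, both-scale genes lower in visual cortex gave 58.5% (55 of 94) at P7, against 47.1% of all measured genes, and 34% (34 of 100) in the adult, against 28.5%. Those higher in hippocampus gave 29.8% (42 genes) at P7, against 34.6%, and 21.1% (31 genes) in the adult, against 22.6%. The smaller sets varied more. Those lower in hippocampus gave 57.1% (12 of 21) at P7, against 28.3%, and 55.6% (15 of 27) in the adult, against 50.9%. In thalamus the higher ones gave 29.2% (7 of 24), against 43%, and 38.7% (12 of 31), against 48%, at P7 and in the adult, and the lower ones 15.2% (5 of 33), against 21.6%, and 14.7% (5 of 34), against 19.4%. Those higher in visual cortex gave 22.5% (9 of 40), against 22.4%, at P7 and 24.4% (11 of 45), against 29.4%, in the adult.

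Of the 34 list genes apart on both scales, 14 kept their order of mean TPM at P7 (41.2%) and 11 in the adult (32.4%), against 36.6% and 31.2% of all measured genes weighted to the same regions and directions. The order held at both ages for 5, which were Apoe, Cd74, Fosb and Kcnk6, lowest in visual cortex, and Lyz2, highest in thalamus. No share of all measured genes is given for both ages together. These 5 of 34 are therefore not shown to recur more often than other genes. Apoe averaged 698.03 TPM in visual cortex, against 2046 in hippocampus and 3361 in thalamus at P7, and 86.6 TPM in visual cortex, against 142.2 and 932.1, in the adult. Lyz2 averaged 866.04 TPM in thalamus, against 444.00 in hippocampus and 544.96 in visual cortex at P7, and 525.1 TPM, against 406.4 and 304.9, in the adult. Cd74, the invariant chain of MHC class II, averaged 3.28 TPM in visual cortex at P14, against 27 in hippocampus and 31.6 in thalamus, and was in 6.25% of visual cortical cells, against 20.8% and 23.4%. Dusp1 kept its order at P7 but was highest in visual cortex in the adult, at 1793 TPM, against 1353 in hippocampus and 1734 in thalamus. Vav1, which is not on the lists, was lowest in hippocampus at P7, at 144.4 TPM, against 246.2 in thalamus and 177.2 in visual cortex.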

How the data were processed

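The authors deposited 1 table of TPM for single cells. Per the submitters' processing notes, RSEM 1.2.19 and Seurat were used with the genome build GRCm38; the settings are not stated in the labels. Columns summed to between 997740 and 1000000, and no counts or molecular identifiers are held, so read depth and its error are unknown. Each GEO sample is 1 cell, and cells were grouped by the source label and joined to columns by title. No doublet caller was run, and the Calb1 limit was also applied to P7 and adult cells.

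Mean TPM, log2 ratios with a pseudocount of 1 TPM, and mean log2(TPM + 1) were computed with Python 3.11.15, numpy 2.4.6 and pandas 2.3.3, and shares of cells have exact Clopper-Pearson 95% intervals from scipy 1.17.1. With 1 sample per region there was no test, and ratios compare these samples only. Gene lists were described by medians and counts beside those of all measured genes.

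Ranked genes were, per region and direction, the 8 with the largest smaller ratio to the other regions among genes apart by 1.5-fold, with 50 TPM or more and 25% of cells at 1 TPM or more in the higher region(s), and the same sign on the mean log scale; mitochondrial, ribosomal, predicted, sex-linked genes and pseudogenes were left out. Of each list, up to 4 members with the largest ratio were also taken. Genes described from the counts on both scales, and Psap, Sumo3, Timp2, Fcgr1, Mrc1, Ptprc, Mki67 and Irf7, were chosen after their values were seen. Members, lists and rules were all chosen with earlier results of these data known.

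Alternatives were other pseudocounts, minimum means, the mean log scale, leaving out each gene's highest cell, rescaling, keeping Calb1-high cells, dropping cells with under 1000 genes, equal weight to runs and leaving out each run. Counting of genes apart was tested on simulated data without run differences or genes carried by single cells, which checks the computation only. Gene positions are from GENCODE M21, which matched 39379 gene names, and promoters from RefSeq.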

Additional observations from a re-analysis of the deposited data

Results flagged for a closer look

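The comparison did not use 12 hippocampal, 2 thalamic and 8 visual cortical cells at P14, which had Calb1 at 100000 TPM or more. Kept cells also had Calb1, at up to 13177 TPM in hippocampus, 67034 in thalamus and 75115 in visual cortex.

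Among the genes apart at P14 on both scales with separate runs, 6 lay the other way in the adult, by 1.5-fold or more against both other regions. Others, Atr and Zfp326 among them, also lay on the far side of both other regions in the adult, but by less than 1.5-fold. The difference between ages was not tested. The sets at P14 held 16 genes higher and 3 lower in hippocampus, 5 and 1 in thalamus, and 3 and 14 in visual cortex. Of all measured genes, 12.3% to 28.4% lay 1.5-fold or more on the opposite side in the adult, depending on region and direction. These 6 are therefore not shown to lie the other way more often than other genes. Adult log2 ratios here are to the nearer of the other regions. Tomm34, which encodes a mitochondrial import co-chaperone, was higher in hippocampus at P14, while in the adult its ratio was -1.03 (40.1 TPM in hippocampus, against 127.6 in thalamus and 83.1 in visual cortex). Casp6 was higher in thalamus at P14 and had -1.19 in the adult, and Rnf167 was lower in thalamus at P14 and had 0.73. Zfp644 was higher in visual cortex at P14 and had -0.98 in the adult (50.9 TPM, against 113.6 in hippocampus and 101.3 in thalamus). Ints9, a subunit of the Integrator complex, was also higher in visual cortex and had -2.43, and Gramd1a, a sterol transfer protein, was lower there and had 0.78.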

How the results depend on the processing

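No paired analysis was possible because the result comes from no test and the replicate numbers only name cells. All shares here are percents of the genes measured under the setting, 12738 as reported and 7847 with a minimum mean of 20 TPM, and each set is given as hippocampus higher, hippocampus lower, thalamus higher, thalamus lower, visual cortex higher and visual cortex lower. As reported, shares of genes apart were 14.5, 14.2, 14.2, 10.7, 15.4 and 16.3. On the mean log scale alone they were 4.11, 0.314, 0.432, 0.738, 0.526 and 1.69, and on both scales (added after the data were seen) 1.17, 0.212, 0.243, 0.267, 0.361 and 0.785. With a pseudocount of 10 TPM they were 9.49, 6.98, 8.75, 5.0, 10.2 and 7.91, and with a minimum mean of 20 TPM 12.9, 12.6, 10.8, 9.85, 13.7 and 14.4. Thalamus higher was 16.1 with a minimum mean of 1 TPM and 6.84 with no filter, where 43280 gene names are tested. Without each gene's highest cell, thalamus lower was 7.77 and visual cortex higher 10.7. Leaving out 1 run of each region gave 15 to 19, 14 to 18.1, 15.6 to 19.1, 11.7 to 12.4, 15.5 to 18.7 and 16 to 21.2.

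With separate runs as well, shares were 0.958, 1.07, 1.48, 0.330, 0.793 and 1.27 as reported, and 0.126, 0.0236, 0.0393, 0.00785, 0.0236 and 0.110 on both scales. On the mean log scale hippocampus lower was 0.0785, thalamus higher 0.102, thalamus lower 0.0942, visual cortex higher 0.102 and visual cortex lower 0.330. With a minimum mean of 20 TPM hippocampus lower was 1.12, thalamus higher 1.27 and visual cortex lower 1.36, over fewer genes. Leaving out a run leaves fewer runs to separate, and gave 4.15 to 5.89, 4.28 to 6.74, 5.76 to 7.75, 2.37 to 3.17, 4.31 to 5.68 and 4.82 to 7.69.

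Of the genes named by rule or list that were 1.5-fold apart, 11 (8.15%) turned sign under some setting, and of the 37 short of 1.5-fold 13 did; the cause was not tested. In visual cortex Atf4 became -0.55 on the mean log scale, -0.01 without the highest cells and between -0.33 and 1.95 without 1 run, Icam1 -0.19 on the mean log scale and between -1.63 and 1.31 without 1 run, and Itgav -0.02 on the mean log scale. Without 1 run of each region, visual cortex spanned -1.64 to 0.51 for Adamts1, -1.37 to 0.28 for H2-D1 and -0.31 to 1.71 for Tyms, where leaving out the first runs turned the sign. It spanned -0.03 to 5.45 for Exosc2, turned without the second runs, and -0.20 to 3.60 for Pebp1, turned without the third. mt-Nd3 in visual cortex was 0.03 with Calb1-high cells kept. In hippocampus Cmklr1 became -0.52 without the highest cells and spanned -0.46 to 4.41 without 1 run, and Gfpt1 spanned -0.03 to 2.32. Of the 10 list medians beyond 1.5-fold 5 turned sign. Monocyte genes did so in hippocampus (-0.10 on the mean log scale, -0.07 without the first and -0.30 without the third runs) and visual cortex (0.12 on the mean log scale, 0.07 without the second and 0.24 without the third runs, against -0.36 without the first). Interferon genes spanned -0.78 to 0.19 in thalamus and -0.75 to 1.67 in visual cortex without 1 run, turned without the third runs. MHC class II genes had 0.14 in visual cortex with a minimum mean of 1 TPM. Of the list medians nearer to 0, 64.7% turned sign under some setting. Without the first runs these included inflammatory (-0.37) and heat shock genes (-0.65) in hippocampus and border-associated genes (-0.43) in visual cortex, against 0.27, 0.08 and 0.45 with all runs.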
